A study of Ovis aries and Mus musculus with 20 samples.

Results

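The 8 genes described here are the mouse adrenergic receptor genes *Adrb1*, *Adrb3*, *Adra1a*, *Adra1b*, *Adra1d*, *Adra2a*, *Adra2b* and *Adra2c*. They were taken by name as members of one receptor family, by a rule that uses no measured value, and are 8 of the 20615 autosomal protein-coding genes whose start had a value in both mouse libraries. The study compared the folding of the genome in adipose tissues across mammals by *in situ* Hi-C, which joins nearby DNA ends inside intact nuclei and counts the joined pairs as contacts. The mouse samples are 2 Hi-C libraries of inguinal white adipose tissue (iWAT), a subcutaneous fat depot, from adult 32-week-old female Kunming mice, and each library is a pool of 10 mice. All mice belong to 1 group, with no treatment or genetic change named in the labels. The study's methods say of its animals in general that they had free access to food and were killed after a fast. The layer that held adipocytes was lysed, its nuclei were collected and the chromatin was cut with MboI, so nuclei of other cells carried along in that layer would be in the same map. The mouse files analysed here hold no RNA, so neither the expression of the receptors nor the identity of the cells could be checked by marker genes.

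Adrenergic receptors are the receptors for noradrenaline, released by sympathetic nerves, and for adrenaline from the adrenal medulla. The beta receptors couple to the stimulatory G protein, raise cAMP and activate protein kinase A, which in adipocytes sets off lipolysis, and *Adrb3* is the beta receptor that marks rodent adipocytes. The alpha2 receptors couple to inhibitory G proteins and oppose that signal, and the alpha1 receptors couple to Gq, which activates phospholipase C and releases calcium.

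The measurement is the A-B index of each 20-kb bin, the contact of the bin with A compartment regions of its chromosome minus its contact with B compartment regions. A values, above 0, belong to the gene-rich and mostly active compartment, and B values, below 0, to the gene-poor and mostly inactive one. With only 2 pools of 1 group no difference between groups could be tested, so all values are descriptions, given for each pool and as mean ± SD (n = 2 pools). Over all 20615 gene starts the pools had a Pearson r of 0.986, a correlation across genes, which are not independent replicates. The mean index at all starts had a median of 3.26 and ran from 0.278 at the 25th to 4.66 at the 75th percentile.

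The genes lie at chr19:56710631-56721545 on the plus strand (*Adrb1*, ENSMUSG00000035283), chr8:27715443-27740925 on the minus strand (*Adrb3*, ENSMUSG00000031489), chr14:66872700-67012152 on the plus strand (*Adra1a*, ENSMUSG00000045875) and chr11:43665433-43792037 on the minus strand (*Adra1b*, ENSMUSG00000050541). *Adra1d* lies at chr2:131385993-131404693 on the minus strand (ENSMUSG00000027335), *Adra2a* at chr19:54032582-54037413 on the plus strand (ENSMUSG00000033717), *Adra2b* at chr2:127205128-127209141 on the plus strand (ENSMUSG00000058620) and *Adra2c* at chr5:35435663-35439107 on the plus strand (ENSMUSG00000045318). All positions are those of GRCm39. *Adra2b* and *Adra2c* span 4014 and 3445 bases, while *Adra1a* and *Adra1b* span 139453 and 126605 bases, beyond the 90th percentile of protein-coding genes.

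The 200 bases before the start are shown for the receptors on which the results turn, *Adrb1* in the A compartment, *Adra1b* in B, and *Adrb3* and *Adra2a* beside a change of compartment. They are read 5′ to 3′ on the strand of the gene, with CG pairs in capitals. The windows are chr19:56710431-56710630 (*Adrb1*), chr11:43727160-43727359 (start of the canonical transcript of *Adra1b*), chr11:43792038-43792237 (outermost start of *Adra1b*), chr8:27740926-27741125 (*Adrb3*) and chr19:54032382-54032581 (*Adra2a*).
Adrb1: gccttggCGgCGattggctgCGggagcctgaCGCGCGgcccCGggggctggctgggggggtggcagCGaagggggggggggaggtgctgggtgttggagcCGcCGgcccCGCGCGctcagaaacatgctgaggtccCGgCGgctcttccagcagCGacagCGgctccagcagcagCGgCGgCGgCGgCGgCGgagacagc
Adra1b, canonical start: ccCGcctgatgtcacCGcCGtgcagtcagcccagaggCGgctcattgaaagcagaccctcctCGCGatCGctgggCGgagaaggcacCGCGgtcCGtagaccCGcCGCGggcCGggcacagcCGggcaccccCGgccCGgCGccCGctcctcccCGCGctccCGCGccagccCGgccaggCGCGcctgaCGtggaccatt
Adra1b, outermost start: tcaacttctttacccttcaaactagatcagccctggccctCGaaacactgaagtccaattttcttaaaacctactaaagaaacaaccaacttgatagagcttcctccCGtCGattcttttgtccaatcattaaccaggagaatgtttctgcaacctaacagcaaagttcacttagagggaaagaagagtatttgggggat
Adrb3: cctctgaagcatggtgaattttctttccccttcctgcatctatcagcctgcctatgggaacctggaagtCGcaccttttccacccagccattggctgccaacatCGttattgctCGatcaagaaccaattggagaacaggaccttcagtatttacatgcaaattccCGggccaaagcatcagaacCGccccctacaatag
Adra2a: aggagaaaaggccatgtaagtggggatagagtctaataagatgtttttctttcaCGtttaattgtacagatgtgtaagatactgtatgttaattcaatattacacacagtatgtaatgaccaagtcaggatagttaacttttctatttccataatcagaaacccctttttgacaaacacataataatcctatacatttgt

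These stretches hold 23 CG pairs before *Adrb1*, 28 before the canonical start of *Adra1b*, 3 before its outermost start, 5 before *Adrb3* and 1 before *Adra2a*. The canonical start of *Adra1b* thus held the most CG pairs of the 5 stretches. The 200 bases before the canonical starts of *Adra2a* and *Adrb3* overlap annotated exons and are not shown. They held 9 and 2 CG pairs, so the low count at *Adra2a* belongs to its outermost start. Within 250 bases before the outermost start, *Adrb1* held 25 CG pairs, *Adra2b* 24, *Adra1d* 10, *Adra1a* 8, *Adrb3* 5, *Adra1b* 3, and *Adra2a* and *Adra2c* 2 each, against a median of 6 over all protein-coding genes. On either strand of the same 250 bases the GC box GGGCGG stood before *Adrb3* and *Adra2b*, 2 of 8, and before 30.3% of all genes. The cAMP response element core TGACG stood before *Adrb1*, 1 of 8, and before 16.5% of all genes, and TATAAA before 0 of 8 and 12.6% of all. These counts use the outermost start, and the stretch shown before the canonical start of *Adra1b* holds both GGGCGG and TGACG. The matches describe letters, not bound sites.

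Of the 8 receptors 7 had their start in A in both pools and 1, *Adra1b*, in B in both pools. Over all protein-coding genes 75.6% of starts were in A and 21.7% in B in both pools, and 2.73% differed in sign between the pools, so the members' share in A lay near the background. Of all 20-kb bins, genes or not, 44.4% were in A in both pools. The median of the 8 mean indices was 3.49, beside 3.26 over all genes. The members were spread from percentile 8.01 of all gene starts (*Adra1b*) to percentile 79.3 (*Adra2b*).

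**Figure D1:**
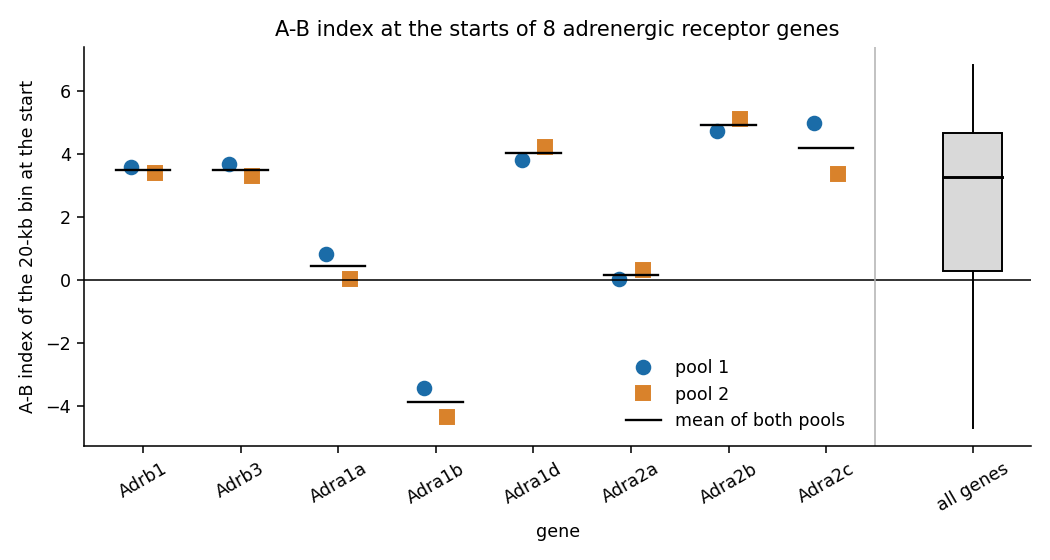
A-B index of the 20-kb bin at the start of each adrenergic receptor gene, with circles for pool 1, squares for pool 2 and a line for their mean; at the right, a box from the 25th to the 75th percentile of the mean index of all 20615 protein-coding gene starts, its median, and whiskers at the 5th and 95th percentiles. Adra1b sits at -3.42 and -4.34, Adra1a and Adra2a sit close to 0, and the other 5 genes sit between 3.29 and 5.11.

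Among the beta receptors, *Adrb1* had a start index of 3.58 in pool 1 and 3.40 in pool 2 (3.49 ± 0.125, n = 2). *Adrb3* had 3.68 and 3.29 (3.48 ± 0.276, n = 2). The ranges of these receptors overlapped, and their means lay at percentiles 53.5 and 53.3 of all gene starts. Among the genes of their own chromosomes they stood apart, *Adrb1* at percentile 74.7 of chromosome 19 and *Adrb3* at percentile 39.4 of chromosome 8. Over the gene body *Adrb1* had 3.31 and 3.17 in its 2 bins, and *Adrb3* had 3.32 and 2.32 over its 3 bins.

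For *Adrb3* the value depended on the start used. The outermost annotated start lies 20073 bases upstream of that of the canonical transcript, where the index was 3.39 and 2.05, a mean of 2.72 in place of 3.48. Both starts were in A in both pools.

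Among the alpha1 receptors, *Adra1d* had 3.82 and 4.23 at its start (4.02 ± 0.294, n = 2), well within A. *Adra1a* had 0.834 and 0.0427 (0.438 ± 0.559, n = 2), at percentile 25.9, so pool 2 lay almost at the border between compartments. *Adra1b* had -3.42 and -4.34 (-3.88 ± 0.651, n = 2), the only receptor in B. These 3 genes of one class thus covered most of the range of the family.

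The bodies of the long alpha1 genes followed their starts. All 8 bins of *Adra1a* were in A in pool 1, from 0.755 to 2.38, and 7 of 8 in pool 2, from -0.0571 to 1.81. All 7 bins of *Adra1b* were in B, from -4.07 to -1.90 in pool 1 and from -4.34 to -2.05 in pool 2. The canonical start of *Adra1b*, 64878 bases inside the outermost one, had -3.39 and -3.74, so the call did not rest on the choice of transcript.

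Among the alpha2 receptors, *Adra2b* had 4.72 and 5.11 (4.91 ± 0.272, n = 2), the highest mean of the family. *Adra2c* had 4.99 and 3.37 (4.18 ± 1.15, n = 2), and *Adra2a* had 0.0352 and 0.309 (0.172 ± 0.194, n = 2). The last, the alpha2 receptor best known for restraining lipolysis, lay at percentile 24.5 of all starts. *Adra2a*, *Adra2b* and *Adra2c* each lie within 1 bin, so their body values equal those of the start.

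In order of the mean index the genes ran *Adra2b*, *Adra2c*, *Adra1d*, *Adrb1*, *Adrb3*, *Adra1a*, *Adra2a* and *Adra1b*. The ranges of the pools overlapped between *Adra2b* and *Adra2c*, between *Adra2c* and *Adra1d*, between *Adrb1* and *Adrb3*, and between *Adra1a* and *Adra2a*, so these neighbours did not differ beyond their spread. The ranges did not overlap between *Adra1d* and *Adrb1*, which differed by 0.532. Wider steps separated *Adrb3* from *Adra1a*, by 3.04, and *Adra2a* from *Adra1b*, by 4.05. The order therefore fell into 5 genes well in A, 2 close to 0 and 1 in B.

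The pools differed most at *Adra2c*, where pool 2 was lower by 1.62, a difference whose size lay at percentile 97.5 of all gene starts. All 51 bins within 500 kb of *Adra2c* were lower in pool 2. Chromosome 5, which holds it, had a median difference of -0.817 (pool 2 minus pool 1) over its 1255 genes, the largest in size of the 19 autosomes, beside -0.348 over all genes. The part of that chromosome-wide shift in the value of *Adra2c* was not tested. Of the 8 members 5 were lower in pool 2, and of all gene starts 70.9% were.

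GC content moved with the index, with a Pearson r of 0.679 over all gene starts, a description across genes whose bins share base composition. The start bins of the members had 42.4% (*Adra1b*) to 53.1% (*Adra2c*) GC, beside a median of 45.0% over all genes. Set against genes whose start bin differed by at most 1 percentage point of GC, *Adra1b* lay at percentile 4.51 of 3085 genes with a median index of 1.98. *Adra2a* lay at percentile 7.94 of 3034 such genes with a median of 3.77, and *Adra1a* at percentile 16.8 of 3412 with a median of 3.06. *Adra1d* and *Adra2b* lay near the middle of their like genes, at 54.8 and 52.2, and *Adrb1*, *Adrb3* and *Adra2c* below it, at 34.5, 29.9 and 30.8. The part of GC content in these values was not tested.

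The neighbourhoods within 500 kb, 25 bins to each side of the start bin, fell into distinct shapes. Around *Adrb1*, *Adra1d*, *Adra2b* and *Adra2c*, 4 of 8, all 51 bins were in A in both pools, beside 38.2% of all gene starts. With *Adra1a*, 5 of 8 had more than 90% of the bins in A in both pools, beside 46.1%. Around *Adra1a* 51 and 50 bins were in A, and around *Adra1b* 2 and 1. *Adrb3* with 28 and 27 bins in A and *Adra2a* with 26 and 24 were the members whose neighbourhood was split between the compartments.

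**Figure D2:**
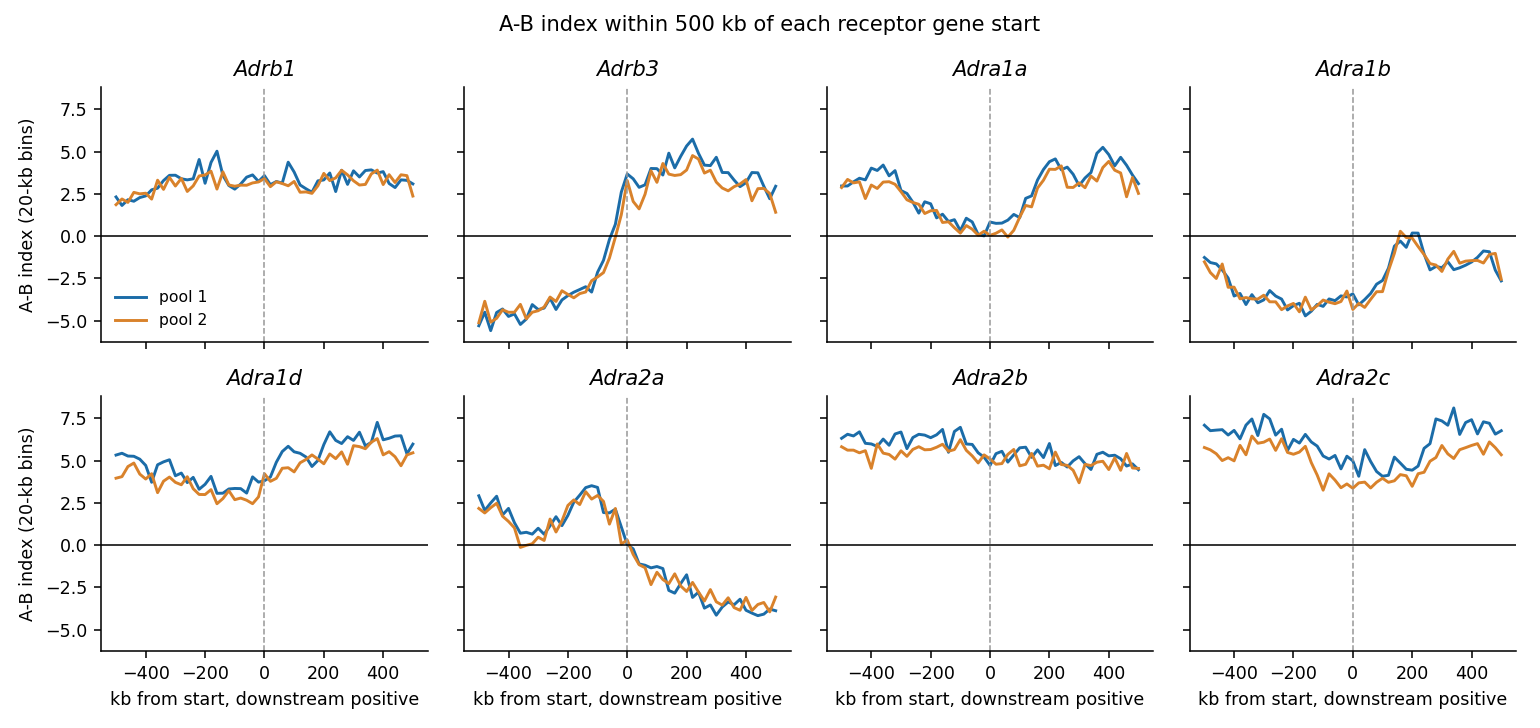
A-B index of 20-kb bins against the distance in kb from the start of each of the 8 receptor genes, oriented so that downstream is positive, with 1 line for each pool. The lines cross 0 just upstream of Adrb3 and just downstream of Adra2a, dip toward 0 over Adra1a, stay mostly under 0 around Adra1b and stay above 0 around the other 4 genes.

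At *Adrb3* the change was on the upstream side. The 25 upstream bins averaged -3.40 in pool 1 and -3.45 in pool 2, with 2 and 1 of them in A, while the 25 downstream bins averaged 3.85 and 3.16 and were all in A. The difference between the sides, -6.93 upstream minus downstream, lay in size at percentile 98.1 of all gene starts. The compartment edge, with 5 bins of one sign on each side, lay 59076 bases upstream of the start, at position 27800000 of chromosome 8, where the mean index of adjacent bins went from 0.319 to -0.748.

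At *Adra2a* the change was on the downstream side. The upstream bins averaged 1.93 and 1.59, and the downstream bins -2.83 and -2.70, with 25 and 23 of 25 in A upstream and 0 of 25 in either pool downstream. The same difference was 4.52 and lay in size at percentile 90.3. The edge lay 7419 bases downstream of the start, at position 54040000 of chromosome 19, which is the end of the bin that holds the whole gene, so the gene was in the last bin of A before the B region.

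These were the only members within 100 kb of such an edge, 2 of 8, beside 11.7% of all gene starts. The other 6 members had their nearest edge at least 548 kb away, from 548 kb for *Adra1b* to 2145 kb for *Adra2b*. At both edges the sides had means of opposite sign in pool 1 and in pool 2.

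The neighbours of *Adrb3* were split in the same way. Within 500 kb it had 12 protein-coding genes, 8 in A and 4 in B in both pools. *Eif4ebp1*, which encodes the translation repressor 4E-BP1, starts 9.42 kb upstream in the same bin and so shares the value of *Adrb3*. *Got1l1* starts 27.1 kb downstream, with 2.89 and 1.61. Further upstream, beyond the edge, lie *Chrnb3* (-2.14 and -2.42) and *Chrna6* (-3.16 and -3.40), subunits of neuronal nicotinic acetylcholine receptors named here after their values were seen, and *Ankrd69* (-3.32 and -3.65), the lowest neighbour. The highest was *Plpbp*, 208 kb downstream, at 5.74 and 4.77. Of the 12 neighbours 5 were lower than *Adrb3* in the mean and in each pool, the 4 in B and *Got1l1*.

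The neighbours of *Adra2a* lay on 1 side only. All 6 protein-coding genes within 500 kb were upstream, 5 in A and 1 of different sign in the pools, and no protein-coding gene started within 500 kb downstream. The nearest was *Bbip1*, a subunit of the BBSome, 99.5 kb upstream, with 3.42 and 2.95. The highest was *Pdcd4*, an inhibitor of translation, at 3.41 and 3.17. The lowest was *Rbm20*, a splicing factor best known from heart muscle, at 0.711 and -0.128. In the mean none of the 6 was lower than *Adra2a*, and in pool 2 only *Rbm20* was.

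*Adra1a* lay in a trough. From 500 to 320 kb upstream the index averaged 3.54 and 3.01, in the 100 kb before the start 0.465 and 0.311, in the 100 kb after it 0.970 and 0.388, and from 320 to 500 kb downstream 4.19 and 3.41. The index within 100 kb was lower than that beyond 320 kb by 3.14 in pool 1 and 2.89 in pool 2. This mean difference, -3.02, lay at percentile 3.18 of all gene starts. All 7 neighbouring genes were in A and higher than *Adra1a* in both pools, from *Stmn4*, a stathmin, 291 kb upstream at 2.52 and 2.15, to the mitophagy receptor gene *Bnip3l* at 5.25 and 4.06. The nearest downstream gene, *Pnma2*, started 274 kb away with 3.66 and 2.88.

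Similar, smaller differences were seen at 3 more members. The index within 100 kb was lower than that beyond 320 kb by 2.08 and 1.96 at *Adra2c*, by 1.35 and 1.63 at *Adra1b* and by 1.32 and 1.28 at *Adra1d*. With *Adra1a*, 4 of 8 members were lower near the start in both pools, beside 30.2% of all gene starts. *Adrb1* differed by 0.397 and 0.183 in the other direction, and *Adra2b* by -0.0540 and 0.128. At *Adra2a* and *Adrb3* the differences were 1.48 and 1.32, and 2.63 and 2.03, over windows that cross a compartment edge. The start bin itself lay under the median of its 51 bins at 5 of 8 members, these 4 and *Adra2b*, beside 30.0% of all gene starts. The difference between near and outer bins was chosen after the profiles had been seen. Both counts use overlapping bins around the same starts, so they are not separate observations.

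*Adra1b* lay in B with its surroundings. The index averaged -3.44 and -3.51 over the 25 upstream bins and -1.71 and -1.73 over the 25 downstream bins. The bins in A stood 200 and 220 kb downstream in pool 1, at 0.182 and 0.177, and 160 kb downstream in pool 2, at 0.288. Of its 8 neighbouring genes 6 were in B and 2 differed in sign between the pools. They ran from *Fabp6*, the bile acid-binding protein of the ileum, at -1.87 and -2.09, to *Ttc1*, the nearest downstream gene at 153 kb, at -0.295 and 0.288. *Il12b*, which encodes a subunit of interleukins 12 and 23, started 499 kb upstream with -1.26 and -1.52. All 8 were higher than *Adra1b* in both pools.

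*Adra1d*, *Adra2b* and *Adra2c* lay in A among genes that were mostly higher. Of the 17 neighbours of *Adra1d*, 2 were lower in the mean, 1 in pool 1 and 4 in pool 2, and the values ran from *Erv3* 297 kb upstream, at 4.11 and 3.72, to *Spef1* at 7.27 and 6.31. The spermine oxidase gene *Smox*, 71.3 kb downstream, had 5.86 and 4.59. Of the 26 neighbours of *Adra2b*, 2 were lower in the mean, 3 in pool 1 and 6 in pool 2, with *Astl* (5.21 and 5.35) and *Gpat2* (4.92 and 5.38) the nearest on the sides. *Acoxl* was the lowest, at 4.81 and 4.57, and *Stard7*, which encodes a phosphatidylcholine transfer protein, the highest, at 6.98 and 6.25. Of the 12 neighbours of *Adra2c*, only the homeobox gene *Hmx1*, at 4.14 and 3.72, was lower in the mean and in pool 1, and none in pool 2, while *Lrpap1* (6.56 and 5.85) and the protease gene *Htra3* (7.43 and 5.90) were higher.

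*Adrb1* lay among genes of like index. Its 10 neighbours were all in A, 5 of them lower than *Adrb1* in the mean. They ran from *Habp2*, at 2.06 and 2.59, to *Nhlrc2*, at 4.36 and 3.84, which shares its bin with *Dclre1a*, the nearest upstream gene. The nearest downstream gene, *Ccdc186*, had 3.79 and 3.23.

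Counted over the family, 6 of 8 members had at most 20% of their neighbours within 500 kb at a lower index, beside 23.0% of all genes with a neighbour. The count was 6 in pool 1 (23.3% of all genes) but 4 in pool 2 (23.2%), so 2 of the 6 rested on pool 1. Of 23 other aminergic receptors, those for dopamine, serotonin, acetylcholine, histamine and trace amines, 12 met the same rule. The median share of lower neighbours was 8.01% for the adrenergic receptors, 16.7% for the other aminergic receptors and 48.3% for all genes. This count was also chosen after the values had been seen, and the difference between the adrenergic and the other aminergic receptors was not tested. It uses the same start bins as the counts given above, so it is not separate from them.

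Topologically associating domains (TADs), stretches that contact themselves more than their surroundings, came from 1 map of both merged pools, so they have no replicate. All 8 genes started in a TAD, as did 93.9% of all genes. Each of the 8 also lay whole within its TAD, a count that was not made for all genes. The lengths ran from 260 kb for *Adrb3*, at percentile 5.40 of the 2979 TADs, to 1200 kb for *Adra2b*, at percentile 86.9. They were 540 kb for *Adrb1*, 460 kb for *Adra1a*, 640 kb for *Adra1b*, 340 kb for *Adra1d* and 380 kb each for *Adra2a* and *Adra2c*.

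**Figure D3:**
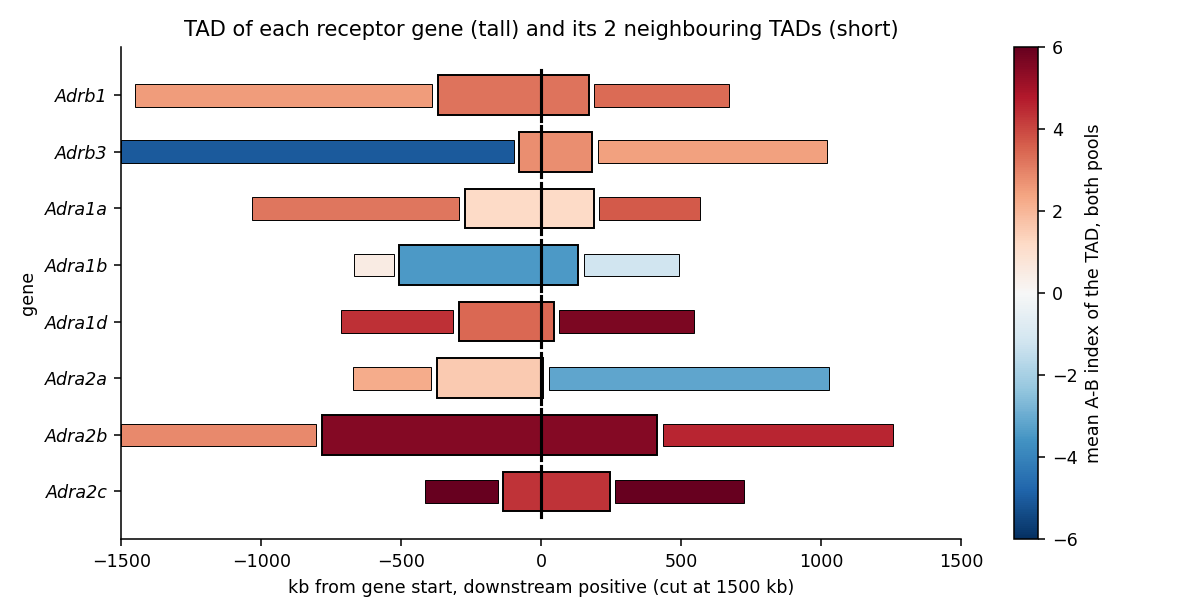
TAD of each receptor gene (tall bar) and the 2 TADs beside it (short bars) against the distance in kb from the gene start, downstream positive, coloured by the mean A-B index of both pools and drawn up to the limits of the axis. The TADs of Adrb3 and Adra2a each have a neighbour in B, on the upstream and the downstream side, and that of Adra1b is itself in B.

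The domain of *Adra2a* ended where the compartment changed. The TAD end lay 7.42 kb downstream of its start, at the same position as the compartment edge. Its own TAD averaged 1.71 and 1.43, and the 1000-kb TAD downstream -3.26 and -3.04. *Adra2a* was the only member within 20 kb or 40 kb of a TAD end, 1 of 8, beside 12.2% and 19.6% of all gene starts. Over the genome, 36.7% of 1252 such compartment edges lay within 20 kb of a TAD end.

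The domain of *Adrb3* ended 79.1 kb upstream of its start, 20 kb beyond the compartment edge. Its own TAD averaged 3.18 and 2.43, with 12 and 11 of 13 bins in A. The TAD upstream was 3680 kb long and averaged -5.20 and -4.89, and only 1.68% of TADs were at least that long. The TAD of *Adrb3* also held the genes *Adgra2*, *Brf2*, *Rab11fip1*, *Got1l1* and *Eif4ebp1*. Within 100 kb of a TAD end lay 3 of 8 members, *Adrb3*, *Adra1d* and *Adra2a*, beside 38.7% of all gene starts.

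Some receptor genes shared their TAD with few other genes or none. *Adra1a* and *Adra1d* were the only protein-coding genes that start in theirs, 2 of 8, beside 2.61% of genes in a TAD. *Adra1b* shared its TAD only with *Il12b* and *Adra2c* only with *Hmx1*, so 4 of 8 had at most 1 other gene, beside 6.95% of genes. These counts depend on TAD ends placed to 20 kb on 1 map without a replicate. At *Adra1d* the upstream TAD end lay 295 kb away and *Erv3* started at 297 kb, less than 1 bin beyond it. The same held for *Stmn4* upstream of *Adra1a* (291 kb, TAD end 273 kb) and *Cpz* downstream of *Adra2c* (247 kb, TAD end 244 kb). The effect of moving a TAD end by 1 bin was not tested. The other aminergic receptors gave 3 alone and 5 with at most 1 other gene, of 21 in a TAD. *Adra2a* had 4 other genes in its TAD, *Adrb3* 5, *Adrb1* 8 and *Adra2b* 26, against a median of 10 over all genes.

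The TADs of *Adra1a*, *Adra1b*, *Adra1d* and *Adra2c*, 4 of 8, had a lower index than both TADs beside them in both pools, beside 22.2% of gene starts in a TAD with 2 neighbours, a count made after the values had been seen. These are the same 4 members that were lower near the start. The bins overlap, so the TAD count is not a separate observation. The TAD of *Adra1a* averaged 1.37 and 1.03, between 3.46 and 2.98 upstream and 4.02 and 3.34 downstream. That of *Adra1d* averaged 3.69 and 3.18, between 4.78 and 3.99 and 6.05 and 5.29. That of *Adra2c* averaged 4.90 and 3.80, between 6.71 and 5.79 and 6.76 and 5.43.

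The TAD of *Adra1b* averaged -3.38 and -3.52, beside 0.817 and 0.176 in the 140-kb TAD upstream and -1.24 and -1.12 in the TAD downstream. The 3′ end of the gene lay 5.43 kb from the downstream end of the TAD. The TAD of *Adra2b* (5.84 and 5.18) was higher than both of its neighbours (3.25 and 2.48 upstream, 4.75 and 4.38 downstream), and that of *Adrb1* (3.44 and 3.12) lay between its own (2.59 and 2.48 upstream, 3.54 and 3.24 downstream).

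Members that share a chromosome allowed a look at the stretch between them. *Adra2a* and *Adrb1* lie 2.68 Mb apart on chromosome 19. Of the 133 bins from one to the other 83 were in A in pool 1 and 82 in pool 2, and 50 were in B in both, in 1 run of 1000 kb that begins next to *Adra2a*. None of the 13 protein-coding genes that start between them was in B. *Adra2b* and *Adra1d* lie 4.20 Mb apart on chromosome 2, and all 209 bins and all 70 genes between them were in A in both pools.

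**Figure D4:**
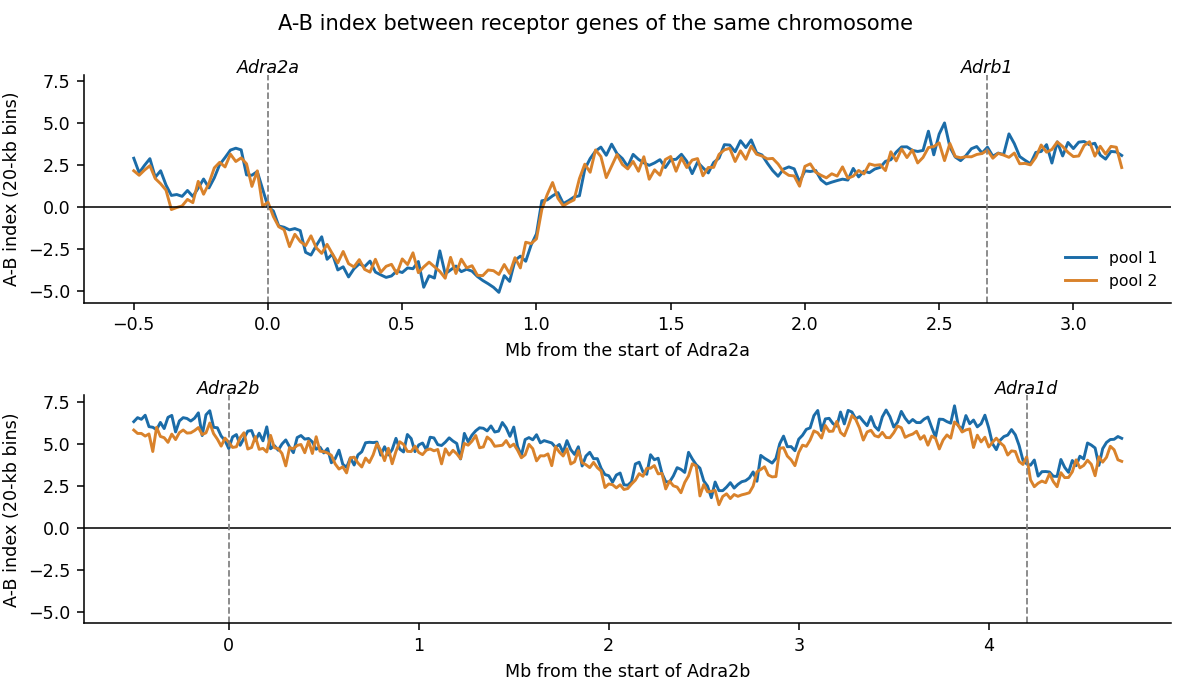
A-B index of 20-kb bins in both pools, against the distance in Mb from Adra2a to Adrb1 (upper panel) and from Adra2b to Adra1d (lower panel), with dashed lines at the gene starts. A B stretch of 1000 kb follows Adra2a and ends long before Adrb1, while the stretch from Adra2b to Adra1d stays above 0.

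The other genes of the pathway were looked up in the same map. The stimulatory G protein gene *Gnas* had 0.841 and 0.0704 at its outermost start, but a mean of 2.15 over the gene body. Of 12 G protein genes 10 were in A, with a median index of 1.96. They ran from *Gnai1* (-1.69 and -2.53) to *Gnai2* (5.53 and 4.77), both of which encode inhibitory alpha subunits, and *Gnb1* (8.14 and 6.46), a beta subunit. Of 10 adenylyl cyclase genes 7 were in A, with a median of 4.00. *Adcy1* (-5.68 and -5.92) and *Adcy8* (-4.20 and -4.21), best known from brain, were the lowest, and *Adcy6* (5.68 and 4.34) and *Adcy9* (6.81 and 5.80) the highest. All 8 genes of protein kinase A and its anchors were in A, with a median of 3.13, from *Akap12* (2.54 and 1.67) and *Prkar2b* (2.71 and 2.13) to *Prkar1b* (5.76 and 3.81) and *Prkar2a* (5.44 and 4.21).

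Genes that end the signal were mixed. Of 8 phosphodiesterase genes, which break down cAMP, 5 were in A, with a median of 2.13, from *Pde4b* (-2.86 and -2.35) and *Pde3a* (-2.09 and -2.01) to *Pde4a* (6.08 and 5.38) and *Pde8a* (5.69 and 6.47). All 7 genes of receptor desensitization, the receptor kinases and arrestins, were in A, with a median of 4.18, from *Grk3* (3.70 and 3.34) and *Grk6* (4.11 and 3.38) to *Arrb1* (5.79 and 5.02) and *Grk4* (7.60 and 6.25). On the alpha1 arm, 8 of 9 genes of phospholipase C, protein kinase C and the IP3 receptors were in A, with a median of 3.82. *Plcb1* (-0.691 and -0.285) was in B and *Plcb4* (0.529 and 0.687) next to it in order, while *Itpr2* (6.37 and 4.46) and *Plcb2* (5.09 and 5.80) were the highest.

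Of the target genes in fat, all 8 lipolysis genes were in A, where 75.6% of all gene starts lay, with a median of 4.81, from *Abhd5* (3.25 and 2.84), the activator of the triglyceride lipase ATGL, and *Mgll* (3.16 and 2.94), which cleaves monoglycerides, to *Lipe* (7.77 and 8.14), the hormone-sensitive lipase, and *Pnpla2* (9.83 and 9.15), which encodes ATGL. All 8 adipocyte genes were also in A, with a median of 4.34, from *Adipoq* (2.71 and 2.74) and *Lep* (3.11 and 3.20) to *Slc2a4* (5.94 and 4.98) and *Cebpa* (6.98 and 6.82). Of 9 genes listed for thermogenesis 7 were in A, a share near that of all genes, with a median of 3.55. The list also holds the general signalling genes *Creb1*, *Atf2* and *Mapk14*, all in A with means of 4.37, 4.24 and 3.82. *Dio2* (-2.15 and -1.84), which makes active thyroid hormone, and *Ppargc1a* (-1.02 and -1.69), a coactivator of mitochondrial genes, were in B, and *Creb1* (4.72 and 4.02) and *Fgf21* (9.06 and 8.36) were the highest.

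Of 9 genes that make, store or remove catecholamines 7 were in A, 1 was in B and 1 differed in sign, with a median of 3.03. *Ddc* (-2.49 and -2.50), the decarboxylase that makes dopamine, was the lowest and *Slc18a2* (-0.242 and 0.296), the vesicular transporter, the next. *Pnmt* (4.82 and 4.36), which makes adrenaline, and *Dbh* (5.48 and 6.33), which makes noradrenaline, were the highest. The pathway genes thus covered both compartments, as the receptors did.

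**Figure D5:**
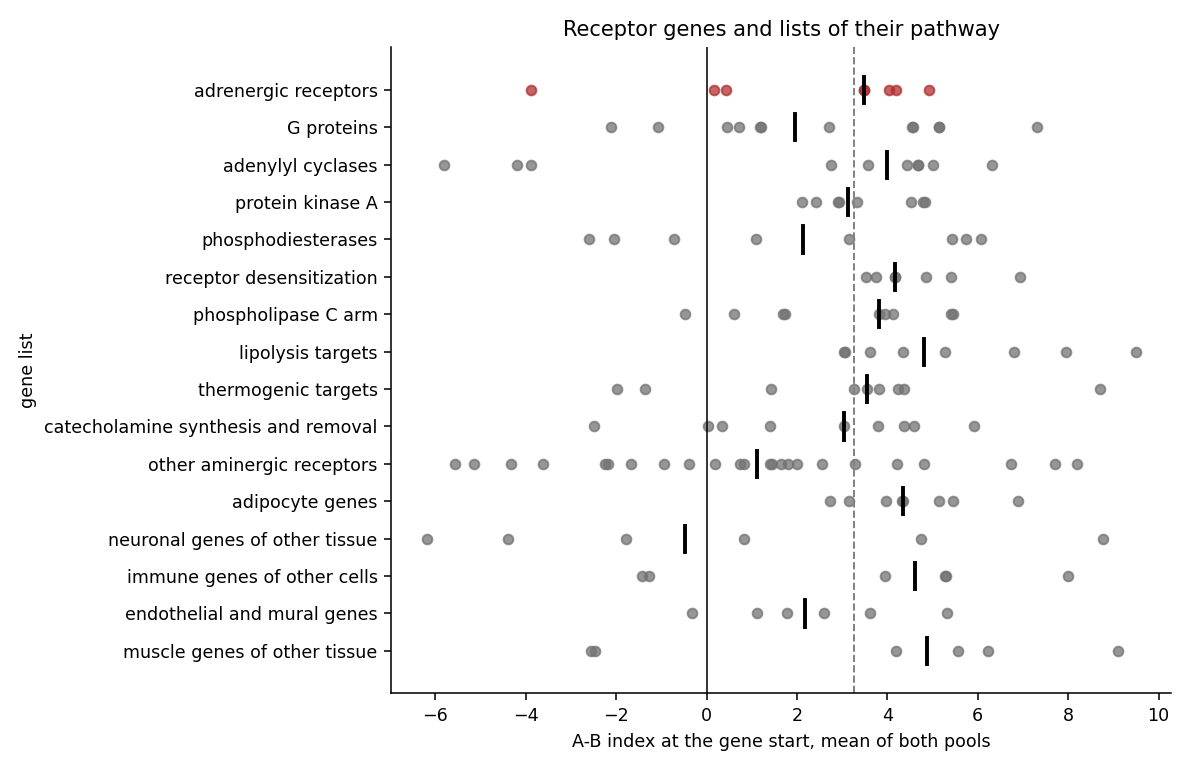
Mean A-B index of both pools at the start of each gene (1 point per gene), for the 8 adrenergic receptors and 15 gene lists, with a bar at each list's median, a solid line at 0 and a dashed line at the median of all protein-coding genes, 3.26. The adrenergic receptors run from -3.88 to 4.91, and the lipolysis, adipocyte, protein kinase A and desensitization lists lie wholly above 0.

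The 24 measured genes of other aminergic receptors had a median index of 1.12, with 14 in A, 8 in B and 2 of different sign. They ran from the serotonin receptor genes *Htr1b* (-5.68 and -5.46) and *Htr1a* (-4.98 and -5.32) to *Chrm4* (8.33 and 7.07), a muscarinic receptor, and *Drd4* (9.20 and 7.21), a dopamine receptor. The adrenergic receptors thus had a higher median, 3.49, and a larger share in A, 7 of 8, than these 14 of 24, a difference between lists that was not tested. Of genes best known from other cells and tissues, 3 of 6 neuronal, 4 of 6 immune, 5 of 6 endothelial and mural and 4 of 6 muscle genes were in A. A place in A in this map was thus not confined to adipocyte genes and is not read here as expression in adipocytes. The relation of the index to expression was not tested, because the mouse files hold no RNA.

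Among genes of these lists more than 1 Mb away, the profile most like that of each receptor was found by the smallest root-mean-square difference over the 51 oriented bins, in units of the index. It was *Gnaz*, an inhibitory-type G protein alpha subunit, for *Adrb3*, with a difference of 0.928 and a Pearson r of 0.979 across bins, and *Slc6a2*, the noradrenaline transporter, for *Adra2a*, with 1.06 and 0.908. It was the leptin gene *Lep* for *Adra1d* (0.515, r 0.890), *Drd3* for *Adra1a* (1.14, r 0.629) and *Arrb1* for *Adra2b* (0.525, r 0.644). The shapes were less alike for the muscarinic receptor gene *Chrm2* with *Adra1b* (1.35, r 0.515), *Adcy3* with *Adra2c* (0.969, r 0.402) and *Mapk14* with *Adrb1* (0.743, r 0.0330). The difference between *Chrm2* and *Adra1b* was the largest of all these pairs. At *Adra2b* and *Adrb1* the next profile was almost as close, *Pde8a* at 0.532 and *Grk6* at 0.771, so the choice there is not firm. At the other members the gap to the next was wider, as for *Adrb3* (*Gnal*, 1.41). The bins of a profile are adjacent and not independent, and a like profile says nothing of shared function.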

How the data were processed

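For both mouse pools the authors mapped the Hi-C read pairs by BWA 0.7.8, and pairs under a mapping quality of 30 were dropped within Juicer 1.5.6. The submitters' processing notes also name R 3.6.1. The deposited values of each pool are a score with a sign, the A-B index, for every 20-kb bin, in which the contact with B regions had been subtracted from that with A regions, after compartments had been set at 100 kb. The TADs were deposited as positions, called by insulation score on 1 map of the merged pools. Contact counts were not used here, so the depth behind each bin is unknown and no counting interval is given. The number of pools limits the precision.

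Bins of GRCm39 with a share of 0.5 or more unsequenced bases were left out, 3280 of 123133, and gene starts of 20621 autosomal protein-coding genes came from GENCODE M39, of which 20615 had a value. The start is the outermost end of the gene record, in the direction of transcription. Positions count from 1. A was called above 0 in both pools and B below 0 in both. GC content, CG pairs and motifs were read from GRCm39, and the sequences shown overlap no annotated exon. Python 3.11.15 with numpy 2.4.6, pandas 2.3.3, pysam 0.24.0 and matplotlib 3.10.9, and samtools 1.23.1, were used, and the functions were tested on simulated data.

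The named genes are the 8 members, the 2 highest and the 2 lowest of each pathway list (except 1 G protein gene, not reported here), the nearest, highest and lowest neighbours within 500 kb, and the most alike profiles. Genes outside this rule are given where a result turns on them. Members and lists were chosen with earlier results of these data known. Alternatives covered the number of bins, the start used, the scaling, the threshold, the window and leaving out each pool. The sheep samples of the series were not used here.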

Additional observations from a re-analysis of the deposited data

How the results depend on the processing

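The median start index of the 8 receptors, 3.49, became 2.97 over 3 bins, 2.70 over 5 bins, 4.12 after the chromosome median was subtracted, and 3.11 both at the midpoint of the gene and, chosen after seeing the data, at the canonical start. Without either pool in turn it ranged from 3.33 to 3.63. No start value of a member, taken as the mean of the pools used, changed sign under these alternatives and quantile normalization. The sign in each pool was not followed over 3 or 5 bins. At Adra2a the bin before the start bin held 1.08 in pool 1 and 0.0664 in pool 2. The bin after it held -0.214 and -0.546, so the call there can depend on the number of bins. Together they gave 64 values, 54 within the SD of the pools and 10 beyond it. The 54 are no measure of robustness. Leaving out a pool cannot move a value beyond an SD taken from the same pools. The midpoint or canonical start also often lay in the same bin as the start used. At a margin of 0.5 from 0 the count in A fell from 7 to 5, with Adra1a and Adra2a uncalled, and the background in A went from 75.6% to 72.3%, or to 44.4% over all bins. The count within 100 kb of a TAD end, 3, was 1 within 20 kb and 1 within 40 kb. Leaving out a pool gave 7 to 7 members in A, 2.74 to 3.32 for the median over gene bodies, 5 to 5 members with more than 90% of their window in A, and 106 to 107 in place of 105 in A of the 136 measured genes of all 15 lists, and 4 to 6 members with few lower neighbours. No paired analysis was possible because all samples belong to 1 group. With 2 pools and a merged TAD map, an SD over n = 2 is itself imprecise, and values near 0, as at Adra1a and Adra2a, do not set the compartment firmly.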
